A study of Mus musculus with 12 samples.

Results

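The genes described here are 10 genes of the Th2 and Th9 programs in mouse CD4+ T cells, namely *Il4*, *Il5*, *Il13*, *Il9*, *Il24*, *Il3*, *Csf2*, *Gata3*, *Il1rl1* and *Ccr8*. They are 10 of the 45777 genes of the deposited table and were matched by gene symbol. They were selected on their measured levels in the same 4 groups of libraries that are compared below, so their levels and fold changes are given as a description. Counts of these genes that met a calling rule over all genes are also descriptive, because the same libraries chose the genes. All 10 had counts above 0 in at least 3 libraries, as did 23585 of the 45777 genes, and these 23585 genes were the ones tested.

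RNA was sequenced from splenic CD4+ T cells after 3 days of culture. An anti-CD3 antibody at 0.5 ug/ml stimulated the cells through the receptor for antigen. All 4 groups received this stimulus. The first group received nothing else, the second received *L. acidophilus*, the third received FK506 (tacrolimus), and the fourth received *L. acidophilus* and FK506 together (the combination treatment). Each group had 3 libraries, numbered 1 to 3. The labels give wild type Balb/c mice aged 7 weeks, while the study's methods name B6 mice of another age for the sequenced cells, so the strain is uncertain. The methods describe heat-inactivated *L. acidophilus* in splenocyte cultures, and no dose of *L. acidophilus* or FK506 was given for the sequenced cells. Nothing states whether the libraries of a group came from separate mice, and the spread between them may be technical.

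Th2 cells secrete IL-4, IL-5 and IL-13, which drive antibody class switching to IgE, eosinophil growth and mucus secretion. Th9 cells, which are defined by IL-9, arise from related conditions. GATA3 is the transcription factor that sets up the Th2 program and binds within the cytokine locus. FK506 inhibits calcineurin, the phosphatase that lets NFAT factors enter the nucleus after receptor stimulation, and NFAT factors bind the promoters of many T-cell cytokine genes.

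Total counts per library ranged from 45416397 to 64658165. The library numbered 1 was the deepest of its group in all 4 groups. Summed levels of 7 CD4 T-cell markers were 1150 to 1650 FPKM (fragments per kilobase of transcript, scaled to the size of the library) with anti-CD3 alone and 1900 to 2200 FPKM with the combination treatment, and 0 of the 7 were called between these groups by edgeR, DESeq2 or limma, while 5 had an unadjusted p under 0.05 in edgeR. With *L. acidophilus* and FK506 the 7 markers summed to 1400 to 1510 and 1260 to 1460 FPKM. Between the combination treatment and FK506 0 of the 7 were called and 5 had an unadjusted p under 0.05 in edgeR. The 2 CD8 T-cell markers summed to 2.21 to 5.14 FPKM with anti-CD3 alone and 4.34 to 5.01 FPKM with the combination treatment. They summed to 3.34 to 6.29 FPKM with *L. acidophilus* and 4.63 to 9.02 FPKM with FK506. In edgeR 1 of the 2 was called higher with FK506 than with anti-CD3 alone, and 1 lower with the combination treatment than with FK506. Markers of other cells were also present. In the order anti-CD3 alone, *L. acidophilus*, FK506 and combination treatment, the 10 B-cell markers summed to 39.8 to 65.4, 26.8 to 38.3, 238 to 479 and 138 to 165 FPKM. The 11 myeloid markers summed to 0.923 to 1.52, 0.852 to 4.86, 5.45 to 18.5 and 48.7 to 94 FPKM in the same order, and all 9 that were tested were higher with the combination treatment than with anti-CD3 alone. In these bulk libraries fewer cells of a type and less RNA per cell cannot be told apart. The part of these other cells in the results below was not tested.

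Of the 10 genes, 5 lie in one cytokine cluster on chromosome 11 that spans 654.8 kb (GRCm38.p6, RefSeq positions). *Il4* lies at chr11:53612460-53618665 on the minus strand, *Il13* at chr11:53631323-53634702 on the minus strand and *Il5* at chr11:53720794-53725103 on the plus strand. *Rad50*, a DNA repair gene, lies between *Il13* and *Il5* at chr11:53649519-53707319. *Csf2* (chr11:54247270-54249899) and *Il3* (chr11:54265085-54267279), both on the minus strand, lie beside each other at the far end of the cluster. The others lie elsewhere, *Il9* at chr13:56479277-56482257, *Il24* at chr1:130882074-130887411, *Il1rl1* at chr1:40404864-40465418, *Gata3* at chr2:9857078-9887953 and *Ccr8* at chr9:120092133-120094906.

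The 250 bases before the start site are shown for 4 cytokine genes whose levels moved together across the groups. They are also shown for *Ccr8*, whose level moved least of the genes described with the combination treatment against anti-CD3 alone. With either single treatment *Il4*, *Il9* and *Gata3* moved less than *Ccr8*. The sequences are from RefSeq (GRCm38.p6), 5′ to 3′ on the strand of the gene, and end at the base before the start site. Where RefSeq lists 2 start sites, as for *Il4*, the one nearest to the GENCODE start was taken. The windows of *Gata3* (chr2:9878601-9878850) and *Il1rl1* (chr1:40439379-40439628) precede start sites inside the gene spans given above, and the RefSeq start of *Csf2* lies 232 bases from the GENCODE start. Capitals mark GGAAA or its reverse complement TTTCC, the core letters bound by NFAT factors, searched on both strands.
Il4, chr11:53618666-53618915, minus strand: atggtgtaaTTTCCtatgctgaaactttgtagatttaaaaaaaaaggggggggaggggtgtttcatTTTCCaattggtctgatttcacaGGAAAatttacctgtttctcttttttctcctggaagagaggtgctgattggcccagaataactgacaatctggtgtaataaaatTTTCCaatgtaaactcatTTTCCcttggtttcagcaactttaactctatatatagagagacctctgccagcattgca
Il13, chr11:53634703-53634952, minus strand: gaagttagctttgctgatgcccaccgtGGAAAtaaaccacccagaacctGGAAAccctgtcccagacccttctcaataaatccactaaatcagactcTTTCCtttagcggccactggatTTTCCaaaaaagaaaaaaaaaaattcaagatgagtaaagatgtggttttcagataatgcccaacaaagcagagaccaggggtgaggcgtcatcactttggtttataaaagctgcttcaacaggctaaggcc
Il5, chr11:53720544-53720793, plus strand: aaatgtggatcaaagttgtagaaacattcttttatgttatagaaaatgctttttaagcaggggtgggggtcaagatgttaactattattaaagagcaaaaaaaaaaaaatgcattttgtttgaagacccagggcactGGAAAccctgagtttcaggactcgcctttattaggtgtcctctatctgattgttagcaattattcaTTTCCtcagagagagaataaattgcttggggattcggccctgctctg
Il9, chr13:56482258-56482507, minus strand: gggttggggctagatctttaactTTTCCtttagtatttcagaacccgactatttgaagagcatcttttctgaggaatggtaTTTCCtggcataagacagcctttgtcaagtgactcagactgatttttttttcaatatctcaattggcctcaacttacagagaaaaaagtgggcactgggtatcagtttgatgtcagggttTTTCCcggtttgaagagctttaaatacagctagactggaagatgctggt
Ccr8, chr9:120091883-120092132, plus strand: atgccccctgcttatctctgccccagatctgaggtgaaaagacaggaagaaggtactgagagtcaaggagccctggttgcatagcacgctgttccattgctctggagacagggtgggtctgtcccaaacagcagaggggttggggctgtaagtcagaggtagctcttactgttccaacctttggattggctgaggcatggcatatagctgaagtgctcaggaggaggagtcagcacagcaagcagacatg
The window of *Il4* holds 5 matches, which 0.39% of 32851 RefSeq promoter windows of the same length reach. The window of *Il13* holds 4 (reached by 1.59% of windows), that of *Il9* holds 3 (6.4%), and those of *Il5*, *Csf2* and *Gata3* hold 2 each (21.4%). *Il3* and *Il1rl1* hold 1 each, and *Ccr8* holds none in this window. In all, 8 of the 9 windows at hand held at least 1 match, against 55.6% of all windows. *Il24* has no entry. The letters GATAA or TTATC, a core bound by GATA factors, were in 5 of 9 windows (*Il13*, *Il3*, *Csf2*, *Il1rl1* and *Ccr8*) against 22.6% of all. The letters TGANTCA, an AP-1 site, were in the *Il9* window only, against 6.7% of all, and TTCNNNNGAA, a STAT6 site, was in those of *Il4* and *Il9*, against 5.9% of all. Matches of one motif may overlap those of another, and a match is a description of the letters, not a site at which binding was measured. With FK506 alone, the log2 fold changes were -0.07 (*Il4*), -1.98 (*Il13*), 0.17 (*Il9*), -0.93 (*Il5*), -3.14 (*Csf2*), -0.53 (*Gata3*), -3.39 (*Il3*), 2.48 (*Il1rl1*) and -0.57 (*Ccr8*). Whether the changes follow the number of matches was not tested.

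*Il4*, which encodes the cytokine that both drives and marks Th2 cells, was measured at 60.2, 20.8 and 24.5 FPKM in libraries 1, 2 and 3 with anti-CD3 alone. It was at 91.0, 17.7 and 21.9 FPKM with *L. acidophilus* and at 36.9, 23.4 and 49.5 FPKM with FK506. With the combination treatment it was at 1.85, 1.27 and 2.23 FPKM, from 40 to 80 counts per library. The 3 groups without the combination overlapped each other, and all 3 combination libraries lay below all 9 others. The combination treatment was 22.6-fold lower than anti-CD3 alone (log2 fold change -4.50, SE 0.70, n = 3 per group; between -4.75 and -3.83 when any 1 of the 12 libraries was left out). *L. acidophilus* and FK506 differed from anti-CD3 alone by 0.21 (SE 0.58) and -0.07 (SE 0.58) on the log2 scale. The first of these was -0.93 without library 1 of *L. acidophilus* and 0.87 without library 1 of anti-CD3 alone, and the second was 0.59 without library 1 of anti-CD3 alone. Between same-numbered libraries the *Il4* ratio of *L. acidophilus* to anti-CD3 alone was 1.39, 0.776 and 0.885 in scaled counts.

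*Il5*, which encodes the growth factor of eosinophils, was at 11.5, 6.23 and 6.78 FPKM with anti-CD3 alone and at 11.1, 2.04 and 2.53 FPKM with *L. acidophilus*. It was at 5.79, 3.21 and 4.94 FPKM with FK506 and at 0.667, 0.187 and 0.281 FPKM with the combination treatment. The FK506 libraries lay below those of anti-CD3 alone without overlap, and the combination libraries lay below all others. Its log2 fold change was -4.58 (SE 0.71) with the combination treatment, -0.93 (SE 0.60) with FK506 and -0.73 (SE 0.59) with *L. acidophilus*. Library 1 was the highest in each group, and in the combination it had 74 counts where the others had 15 and 24. Without library 1 of *L. acidophilus* the log2 fold change after *L. acidophilus* was -1.92, and without library 1 of the combination that of the combination was -5.33. With FK506 it was -0.58 without library 1 of anti-CD3 alone.

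*Il13*, which encodes the cytokine of mucus secretion and airway reactivity, had the highest mean FPKM of the 10 genes with anti-CD3 alone (244 ± 118 FPKM, SD, n = 3). Its libraries were at 364, 241 and 127 FPKM with anti-CD3 alone, 128, 41.2 and 55.4 with *L. acidophilus*, and 63.1, 48.9 and 90.3 with FK506. With the combination treatment they were at 2.14, 2.34 and 2.92 FPKM. Both single treatments had lower means than anti-CD3 alone and overlapped each other, and the highest *L. acidophilus* library was just above the lowest anti-CD3 library. Between same-numbered libraries the *Il13* ratio of *L. acidophilus* to anti-CD3 alone was 0.325, 0.158 and 0.433 in scaled counts, below 1 in all 3 pairs. Its log2 fold change was -1.80 (SE 0.45) with *L. acidophilus*, -1.98 (SE 0.45) with FK506 and -6.85 (SE 0.57) with the combination treatment, which is 116-fold lower.

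*Il9*, the cytokine gene that defines Th9 cells, was at 40.2, 40.6 and 31.5 FPKM with anti-CD3 alone. It was at 66.1, 23.3 and 25.8 FPKM with *L. acidophilus* and at 27.5, 31.6 and 77.2 FPKM with FK506. With the combination treatment it was listed at 0 counts in all 3 libraries, against 753 to 2634 counts in the other 9. Neither single treatment separated from anti-CD3 alone (log2 fold changes -0.05, SE 0.47, and 0.17, SE 0.47). The first value was -0.69 without library 1 and 0.21 without library 2 of *L. acidophilus*. The second was -0.44 without library 3 and 0.44 without library 1 of FK506. Set against a floor of 3 counts in each combination library, the level was at least 463-fold lower than with anti-CD3 alone, at least 447-fold lower than with *L. acidophilus* and at least 522-fold lower than with FK506. The deposited counts are whole-number estimates, so a 0 may also stand for a few fragments that were assigned elsewhere.

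*Il24*, which encodes a cytokine of the IL-10 family that Th2 cells can make, was the second gene at 0 counts in all 3 combination libraries. It was at 235, 143 and 178 FPKM with anti-CD3 alone, at 126, 45.7 and 97.1 with *L. acidophilus*, and at 70.2, 25.8 and 96.5 with FK506. The libraries of both single treatments lay below all those of anti-CD3 alone and overlapped each other. The log2 fold change was -1.13 (SE 0.47) with *L. acidophilus* and -1.64 (SE 0.48) with FK506. Against the same floor, the combination was at least 4660-fold lower than anti-CD3 alone, at least 2130-fold lower than *L. acidophilus* and at least 1500-fold lower than FK506.

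*Il3* and *Csf2* encode IL-3 and GM-CSF, growth factors of myeloid cells that share a receptor subunit with IL-5. *Il3* was at 15.4, 15.9 and 8.98 FPKM with anti-CD3 alone, 5.31, 8.88 and 8.78 with *L. acidophilus*, 1.32, 0.862 and 1.93 with FK506, and 0.381, 0.330 and 0.171 with the combination treatment. No pair of groups overlapped, although the highest library with *L. acidophilus* (8.88) was just below the lowest with anti-CD3 alone (8.98). The order ran from anti-CD3 alone over *L. acidophilus* and FK506 to the combination treatment. The log2 fold change against anti-CD3 alone was -0.90 (SE 0.34), -3.39 (SE 0.38) and -5.63 (SE 0.44) in that order. The combination libraries held 9 to 24 counts of *Il3*.

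*Csf2* was at 66.6, 27.7 and 22.6 FPKM with anti-CD3 alone, 14.2, 14.7 and 15.3 with *L. acidophilus*, 6.21, 2.82 and 5.27 with FK506, and 8.91, 1.47 and 1.40 with the combination treatment. It was the one cytokine gene of the 7 whose combination libraries overlapped those of FK506. Its log2 fold change was -1.49 (SE 0.64) with *L. acidophilus*, -3.14 (SE 0.69) with FK506 and -3.48 (SE 0.70) with the combination treatment. Between the combination treatment and FK506 the log2 difference was -0.35 (SE 0.65), and it was -1.86 without library 1 and 0.055 without library 3 of the combination. Against anti-CD3 alone, the value of the combination was -4.99 without library 1 of the combination and -2.83 without library 1 of anti-CD3 alone. Without library 1 of anti-CD3 alone the values were -2.48 with FK506 and -0.83 with *L. acidophilus*.

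*Gata3* was at 88.5, 74.8 and 83.9 FPKM with anti-CD3 alone, 90.5, 86.0 and 84.4 with *L. acidophilus*, 63.4, 50.5 and 70.9 with FK506, and 31.1, 29.4 and 31.5 with the combination treatment. Its replicates were close together, with a mean of 30.7 ± 1.08 FPKM (SD, n = 3) in the combination. *L. acidophilus* overlapped anti-CD3 alone, FK506 lay below both, and the combination treatment lay below FK506. The log2 fold change was -0.00 (SE 0.13), -0.53 (SE 0.13) and -1.63 (SE 0.13) for *L. acidophilus*, FK506 and the combination treatment. The level of *Gata3* with the combination treatment was 3.10-fold lower than with anti-CD3 alone, whereas *Il4*, *Il5*, *Il13* and *Il3* were 22.6-fold to 116-fold lower in the same libraries.

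*Il1rl1* encodes ST2, the receptor for IL-33 on Th2 cells, mast cells and other cells, and it was the one gene of the 10 that was higher with the combination treatment. It was at 0.702, 0.278 and 0.273 FPKM with anti-CD3 alone, 2.57, 0.434 and 0.367 with *L. acidophilus*, 4.93, 1.22 and 1.46 with FK506, and 3.30, 1.96 and 2.20 with the combination treatment. Both groups with FK506 lay above anti-CD3 alone and overlapped each other. The log2 fold change was 2.48 (SE 0.77) with FK506 and 2.37 (SE 0.77) with the combination treatment. With *L. acidophilus* it was 1.36 (SE 0.75), and -0.16 without library 1 of *L. acidophilus*, a fit that keeps library 1 of anti-CD3 alone. Between same-numbered libraries the ratio in scaled counts was 3.54, 1.32 and 1.37, above 1 in all 3 pairs. On libraries 2 and 3 alone the log2 fold change was 0.43. The value with FK506 was 1.60 without library 1 of FK506. The 12 mast cell and basophil markers summed to 1.28 to 1.46 FPKM with anti-CD3 alone and to 8.67 to 12.8 FPKM with the combination treatment, with *L. acidophilus* (1.17 to 5.02) and FK506 (3.08 to 6.21) below the combination. Of the 8 that were tested 2 were higher with the combination treatment, while *Fcer1a* and *Mcpt4* were at 0 in all 3 of its libraries. The part of such cells in the *Il1rl1* level was not tested.

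*Ccr8* encodes a chemokine receptor of Th2 and regulatory T cells. It was at 33.1, 56.8 and 54.9 FPKM with anti-CD3 alone, 54.1, 37.2 and 38.8 with *L. acidophilus*, 45.1, 27.9 and 32.4 with FK506, and 26.6, 31.0 and 32.6 with the combination treatment. The combination libraries lay below those of anti-CD3 alone and of *L. acidophilus* and overlapped those of FK506. The highest combination library was only just below the lowest anti-CD3 library. Its log2 fold change was -0.23 (SE 0.22), -0.57 (SE 0.22) and -0.89 (SE 0.22) for *L. acidophilus*, FK506 and the combination treatment.

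**Figure D1:**
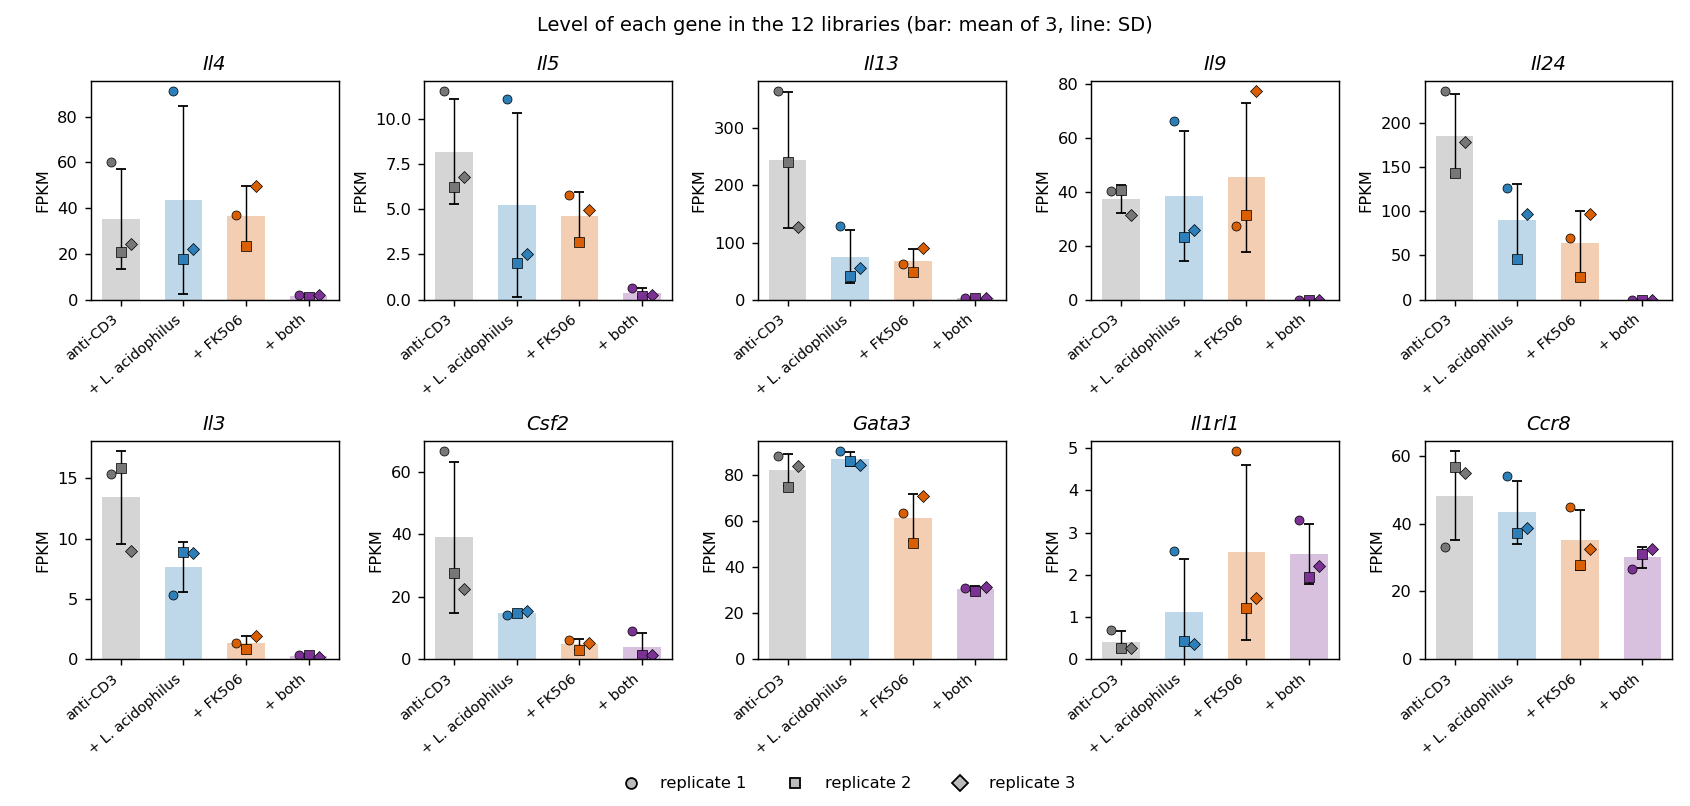
Level in FPKM (linear axis from 0, one scale per gene) of the 10 genes in the 4 groups, with 1 point per library shaped by its replicate number, bars for the mean of 3 libraries and lines for the SD. The 3 points of the combination treatment sit at or near 0 for *Il4*, *Il5*, *Il13*, *Il9*, *Il24* and *Il3*, at 29.4 to 31.5 FPKM for *Gata3*, and above those of anti-CD3 alone for *Il1rl1*.

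**Figure D2:**
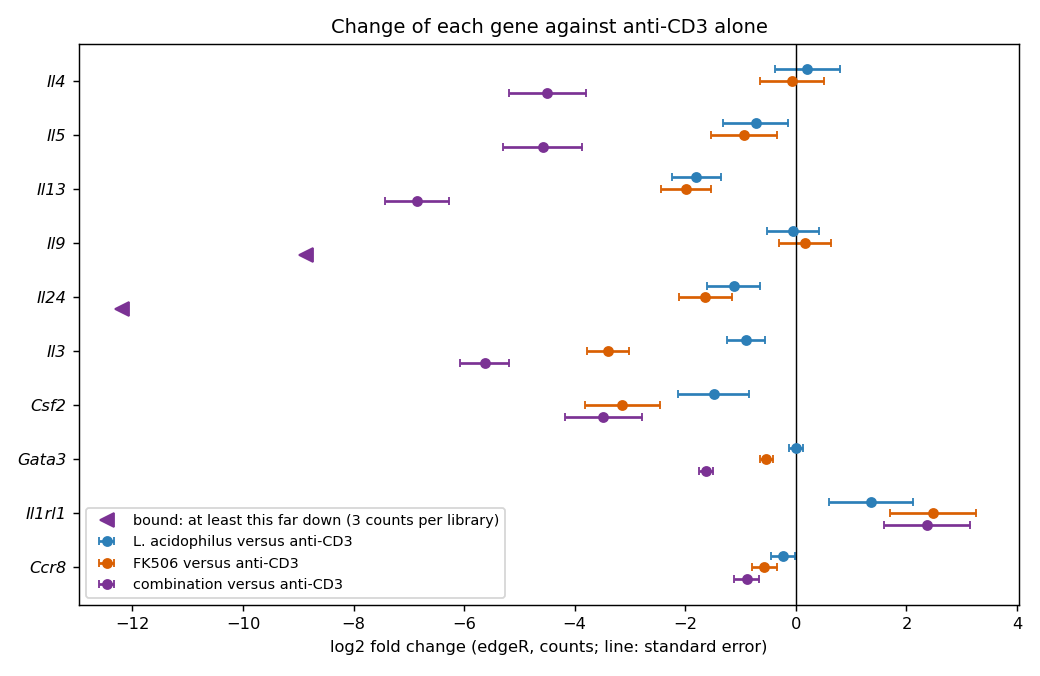
Log2 fold change against anti-CD3 alone for each of the 10 genes, with lines for the standard error, after *L. acidophilus*, FK506 or the combination treatment (3 libraries per group). *Il9* and *Il24* are drawn as triangles at the bound given by 3 counts per combination library, and *Il1rl1* is the only gene with its combination value to the right of 0.

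Compared per kilobase, the order of mean levels with anti-CD3 alone was *Il13* (244 FPKM), *Il24* (185), *Gata3* (82.4), *Ccr8* (48.3), *Csf2* (38.9), *Il9* (37.5), *Il4* (35.2), *Il3* (13.4), *Il5* (8.17) and *Il1rl1* (0.418). With the combination treatment it was *Gata3* (30.7 FPKM), *Ccr8* (30.1), *Csf2* (3.93), *Il1rl1* (2.49), *Il13* (2.47), *Il4* (1.79), *Il5* (0.379) and *Il3* (0.294), with *Il9* and *Il24* at 0. The libraries of *Gata3* and *Ccr8*, and those of *Csf2*, *Il1rl1*, *Il13* and *Il4*, overlapped in the combination. The place of *Csf2* rests on library 1 (8.91 FPKM), as its other libraries (1.47 and 1.40 FPKM) were below the means of *Il1rl1*, *Il13* and *Il4*. The factor and the chemokine receptor thus headed the list that the cytokine genes *Il13* and *Il24* headed with anti-CD3 alone.

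With the combination treatment against anti-CD3 alone, 8 of the 10 genes met the calling rule in the lower direction, which asks for a change of 2-fold or more with an adjusted p below 0.05 in edgeR's quasi-likelihood test over all genes. Of all genes tested, 10.8% were called lower and 13.8% higher. *Il1rl1* was the gene called higher, and that call was lost without library 2 or 3 of anti-CD3 alone or library 1 of the combination, and with limma on quantile-normalized values. *Ccr8* did not reach a 2-fold change unless library 1 of anti-CD3 alone was left out (-1.09). The median log2 fold change of the 10 genes was -4.54, also with *Il9* and *Il24* at their bounds, beside 0.02 over all genes. The groups did not overlap in FPKM for any of the 10, with 9 lower and 1 higher, and 18.8% of all genes lay lower without overlap. These shares are background only, since the genes were chosen on the same libraries.

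FK506 alone called 4 of the 10 genes lower (*Il13*, *Il24*, *Il3* and *Csf2*) beside 4.12% of all genes, and *Il1rl1* higher beside 6.44%. The call of *Il24* was lost without 1 of 6 libraries, namely the 3 of anti-CD3 alone, libraries 1 and 2 of FK506 or library 3 of *L. acidophilus*. Without library 2 of FK506 the call of *Il13* was also lost, which left 2 genes called lower. The call of *Il1rl1* was lost without 1 of 6 libraries, namely libraries 2 and 3 of anti-CD3 alone, 1 and 2 of FK506 or 2 and 3 of the combination, and in all 3 limma fits. *L. acidophilus* alone called 0 of the 10 genes in edgeR, while 0.0297% of all genes were called lower and 0.157% higher. In that comparison 4 of the 10 had an unadjusted p under 0.05 in edgeR, limma called 0, and DESeq2 called *Il13* lower, as did edgeR without library 3 of anti-CD3 alone. The median log2 fold change of the 10 genes was -0.75 with FK506 and -0.48 with *L. acidophilus*. With 1 library left out the latter was between -0.81 (without library 1 of *L. acidophilus*) and -0.24 (without library 2 of *L. acidophilus*). The genes *Il24*, *Il3* and *Csf2* were lower without overlap after *L. acidophilus*, as were 6.03% of all genes. After FK506 6 of the 10 genes were lower without overlap, as were 12% of all genes.

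Set against FK506 alone, the combination treatment was lower for *Il4* (log2 fold change -4.42), *Il5* (-3.65), *Il13* (-4.87), *Il3* (-2.24) and *Gata3* (-1.10), besides *Il9* and *Il24*. These 7 genes were called lower, with 3.6% of all genes called lower and 3.84% called higher. The same 7 lay lower without overlap, as did 17.6% of all genes. *Gata3* lost its call without library 3 of FK506 and in all 3 limma fits, and *Il3* lost it with limma on log2(FPKM + 1), with or without quantile normalization, which left 5 genes. *Csf2* was also called lower without library 1 of the combination. *Csf2*, *Il1rl1* (-0.11) and *Ccr8* (-0.32) overlapped between the 2 groups, and *Il1rl1* was at -0.44 to 0.77 with 1 library left out. The median log2 fold change of the 10 was -2.94.

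Set against *L. acidophilus* alone, 8 genes were called lower with the combination treatment, beside 6.64% of all genes called lower and 9.93% called higher. The values were -4.70 for *Il4*, -3.85 for *Il5*, -5.05 for *Il13*, -4.72 for *Il3*, -1.99 for *Csf2* and -1.63 for *Gata3*, besides *Il9* and *Il24*. Without library 1 of *L. acidophilus* the value of *Il4* was -3.57, that of *Il13* -4.42 and that of *Il5* -2.66. Without library 1 of the combination the value of *Csf2* was -3.50. *Ccr8* (-0.65) was also lower without overlap, which made 9 genes, beside 21.1% of all genes. *Csf2* lost its call without any 1 of the 3 libraries of *L. acidophilus* or library 2 or 3 of the combination. The median of the 10 was -4.28, and -3.11 without library 1 of *L. acidophilus*. With the replicate number as a block, or without library 1 of *L. acidophilus*, *Il1rl1* was called higher in this comparison. Its value was 1.01 (SE 0.73) in the fit of all libraries, 2.53 without library 1 of *L. acidophilus* and 0.60 without library 3 of *L. acidophilus*. The comparisons share libraries, so they are not independent of one another.

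The combination was also set against the sum of the log2 changes of the single treatments. A gene at 0 in this departure has the combination value that the sum gives. *Il4* lay furthest below the sum among genes with counts in every group (-4.63, SE 0.89), since neither single treatment moved it beyond its spread. *Il13* lay at -3.07 (SE 0.65), *Il5* at -2.92 (SE 0.89), *Il3* at -1.33 (SE 0.54) and *Gata3* at -1.10 (SE 0.18). *Il9* and *Il24* lay below the sum by an amount that their 0 counts leave without an upper bound. Without library 1 of *L. acidophilus*, *Il4* lay at -3.50, *Il13* at -2.44 and *Il5* at -1.73. Without library 1 of anti-CD3 alone, *Il4* lay at -5.30 and *Il13* at -3.49. Without library 1 of the combination, *Il5* lay at -3.67. *Ccr8* lay near the sum (-0.08, SE 0.31). *Il1rl1* was at -1.47 (SE 1.04), and at 0.049 without library 1 of *L. acidophilus*. *Csf2* was above the sum (1.14, SE 0.91), and at -0.37 without library 1 of the combination.

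*Il4*, *Il13*, *Il9*, *Il24* and *Gata3* were called in the departure at an adjusted p under 0.05 in edgeR, 5 of the 10 genes, beside 3% of all genes called lower and 1.35% called higher. This count describes genes chosen on the same libraries and is no independent evidence. The count over all genes, 707 lower and 318 higher, was 1291 and 1089 with DESeq2, 998 and 580 with the replicate number as a block, 809 and 866 with limma on log2(FPKM + 1), which turned the excess, and 251 and 81 without library 2 of *L. acidophilus*. *Il13* lost its call without library 3 of FK506 or any 1 library of the combination, and *Il4* without library 2 of the combination. *Il9*, *Il24* and *Gata3* were called in each fit that left out 1 library. On libraries 2 and 3 alone *Il4*, *Il5*, *Il9* and *Il24* were called, and *Gata3* and *Il13* were not. The median departure of the 10 genes was -2.20, beside -0.01 over all genes.

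**Figure D3:**
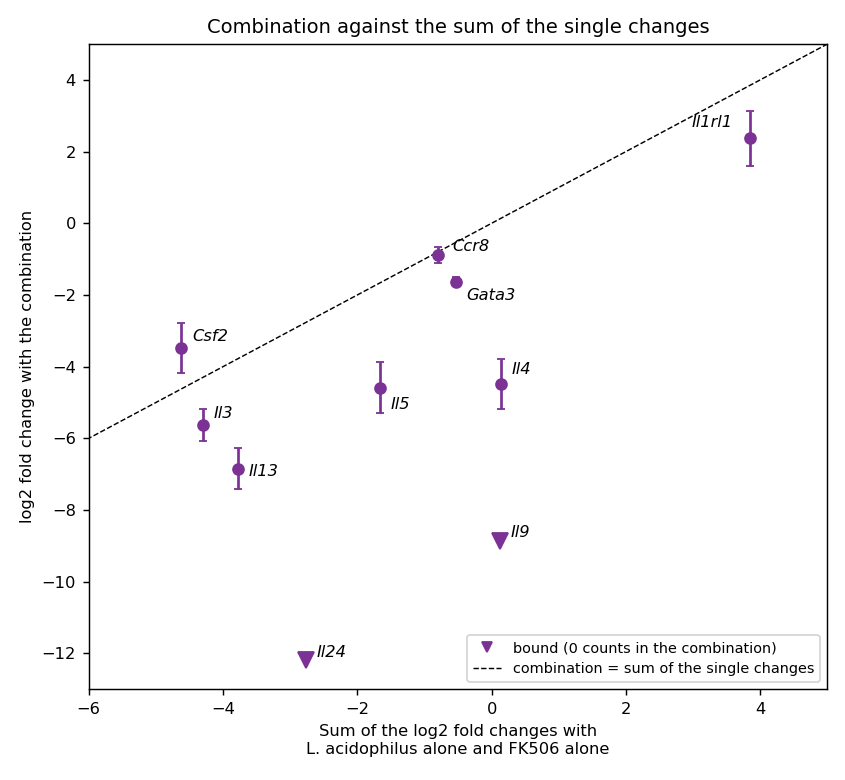
Log2 fold change with the combination treatment against anti-CD3 alone (vertical, lines for the standard error) plotted against the sum of the log2 fold changes of the single treatments (horizontal) for the 10 genes, with a dashed line where the values are equal. *Il4*, *Il9*, *Il5*, *Il24* and *Il13* lie well below the line, *Ccr8* lies on it, *Csf2* lies above it, and *Il9* and *Il24* are drawn as triangles at their bounds.

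Across the 12 libraries, *Il4*, *Il5*, *Il13*, *Il9* and *Il24* varied together, with Pearson correlations of log2(FPKM + 1) between 0.891 (*Il5* and *Il9*) and 0.977 (*Il13* and *Il24*). *Il3* and *Csf2*, neighbours on chromosome 11, were at 0.908 with each other and at 0.571 to 0.821 with those 5 genes. *Gata3* was at 0.849 to 0.963 with the same 5 genes. *Il1rl1* was negatively correlated with all the other 9 (-0.754 to -0.228). The 12 points share 4 groups, and the part of the groups in these values was not tested, so they are a description.

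Among 12211 other genes with a mean of at least 1 FPKM, those most like *Il4* by the same measure were *Cyp11a1* (0.972), the steroid-synthesis enzyme known in Th2 cells, *Mcm2* (0.969), a replication helicase subunit, and *Anp32e* (0.965). *Il13* was most like *Hemk1* (0.989), *Hspa14* (0.987) and *Azin2* (0.983). *Il9* was most like *Mcm2* (0.993), *Cad* (0.983), which encodes the first enzymes of pyrimidine synthesis, and *Ruvbl1* (0.982). *Gata3* was most like *Eif4h* (0.992), *Hsp90ab1* (0.991) and *Ywhae* (0.99), and *Ccr8* was most like *Srpr* (0.914), *Nabp1* (0.879) and *Cdc16* (0.864).

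The wider pathway was read from 4 lists of other genes, 63 in all, of which 61 were tested. With the combination treatment against anti-CD3 alone 31 of the 61 were called, 13 lower and 18 higher, beside 10.8% and 13.8% of all genes. The count was 19 with FK506 (3 lower, 16 higher), beside 4.12% and 6.44% of all genes, and 1 with *L. acidophilus* (higher), beside 0.157%. Against FK506 the combination called 9 (8 lower, 1 higher), beside 3.6% and 3.84%, and against *L. acidophilus* it called 20 (8 lower, 12 higher), beside 6.64% and 9.93%.

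Of 22 regulators of Th2 cells, 9 fell and 3 rose with the combination treatment against anti-CD3 alone. *Gfi1*, a repressor that supports the growth of Th2 cells, was at 56.5, 72.7 and 65.0 FPKM with anti-CD3 alone and at 14.1, 17.2 and 15.2 with the combination treatment, without overlap (log2 fold change -2.28, SE 0.16, edgeR adjusted p = 5.9e-06). *Nfil3*, a bZIP factor, fell by 2.17 on the log2 scale (SE 0.14, edgeR adjusted p = 5.9e-06). The AP-1 factors *Batf* (-1.97, SE 0.35, edgeR adjusted p = 0.000842) and *Junb* (-1.55, SE 0.17, edgeR adjusted p = 3.63e-05) fell as well. Library 2 of anti-CD3 alone, at 402 FPKM of *Batf* where the others were at 218 and 139, was the highest of the 12.

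The 3 Th2 regulators that rose were *Bhlhe41*, *Tcf7* and *Nfatc1*. *Tcf7*, which encodes the factor TCF-1, went from 35.3, 57.0 and 66.8 FPKM to 259, 195 and 194 FPKM (log2 fold change 1.77, SE 0.24, edgeR adjusted p = 0.000121). *Nfatc1*, an NFAT gene, rose by 1.17 (SE 0.13, edgeR adjusted p = 4.3e-05), and *Bhlhe41* rose by 2.89 (SE 0.39, edgeR adjusted p = 0.000124) from a mean of 0.303 FPKM to 2.63 FPKM. *Stat6*, which carries the IL-4 signal, was at 52.0 to 60.4 FPKM with anti-CD3 alone and at 64.9 to 69.6 FPKM with the combination treatment, which did not pass the test (0.10, SE 0.08, edgeR adjusted p = 0.352).

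Of 11 regulators of Th9 cells, 6 rose in the same comparison, and none was called lower by edgeR, DESeq2 or limma, while 8 had an unadjusted p under 0.05 in edgeR. *Id3* and *Bcl6*, which encode repressors of the IL-9 and Th2 programs, rose by 2.56 (SE 0.30, edgeR adjusted p = 5.13e-05) and 2.16 (SE 0.21, edgeR adjusted p = 1.89e-05) on the log2 scale. *Tgfbr2*, a subunit of the TGF-beta receptor, rose from 12.3 ± 2.23 to 43.1 ± 2.49 FPKM (SD, n = 3; log2 fold change 1.61, SE 0.13, edgeR adjusted p = 9.42e-06). *Spi1*, which encodes PU.1, a factor of Th9 cells and also of B cells and myeloid cells, rose by 2.00 (SE 0.36, edgeR adjusted p = 0.000853). It was at 3.79 to 8.33 FPKM with FK506 and 5.61 to 7.73 FPKM with the combination treatment, the 2 groups in which the B-cell and myeloid markers were highest, and their part in its level was not tested.

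The 14 tested receptor genes of these cytokines gave 1 lower and 4 higher. *Il4ra*, the IL-4 receptor chain, was at 140, 157 and 147 FPKM with anti-CD3 alone and at 101, 67.7 and 66.6 with the combination treatment (log2 fold change -1.11, SE 0.16, edgeR adjusted p = 0.000183). It missed the 2-fold limit without library 3 of the combination (-0.99), without TMM factors (-0.91) and with limma on log2(FPKM + 1) (-0.93, or -0.66 with quantile normalization). *Csf2rb* and *Csf2rb2* encode near-identical proteins, the beta chain shared by the receptors of IL-3, IL-5 and GM-CSF and the beta chain of the IL-3 receptor of the mouse, so reads could be split between them. *Csf2rb* went from 0.547, 0.190 and 0.239 FPKM to 21.5, 19.3 and 19.1 FPKM (5.69, SE 0.88, edgeR adjusted p = 0.000309), and *Csf2rb2* rose by 6.03 (SE 0.95, edgeR adjusted p = 0.000354). *Il9r* rose by 2.75 (SE 0.49, edgeR adjusted p = 0.000853) but was at most 0.959 FPKM in the combination, and it lost its call with limma on log2(FPKM + 1) (0.75, or 0.59 with quantile normalization). The myeloid markers were highest in the same 3 libraries, and their part in these receptor levels was not tested.

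The other chains did not pass the test, with log2 fold changes of 0.80 for *Il13ra1* (edgeR adjusted p = 0.386), -0.48 for *Il5ra* (0.318), -0.13 for *Il3ra* (0.615), 0.39 for *Csf2ra* (0.286) and -0.49 for *Il1rap* (0.151). *Il13ra1* was called higher without library 1 of anti-CD3 alone (2.53, edgeR adjusted p = 0.00334). *Il5ra* was at 10.7, 4.39 and 6.93 FPKM with FK506 and at 0.890 to 1.69 FPKM with the combination treatment, lower by 2.52 on the log2 scale (SE 0.38, edgeR adjusted p = 0.00126). The B-cell markers were also lower with the combination treatment than with FK506, 8 of 10 by the same rule, and their part in the *Il5ra* level was not tested.

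Among 14 surface and effector genes of Th2 cells, 3 fell and 5 rose. *Ccr4*, a chemokine receptor of Th2 cells, fell by 1.33 (SE 0.18, edgeR adjusted p = 0.000118), from 91.3, 141 and 152 FPKM to 49.1, 63.9 and 64.1 FPKM, and missed the 2-fold limit with limma on quantile-normalized values (-0.84). *Cysltr1*, a leukotriene receptor, fell by 2.65 (SE 0.60, edgeR adjusted p = 0.00383). *Ecm1*, which lets Th2 cells leave lymph nodes, fell by 1.51 (SE 0.49, edgeR adjusted p = 0.0255), which depended on library 1 of anti-CD3 alone, as it was -0.68 without it (edgeR adjusted p = 0.17). Its call was also lost without library 2 (-1.42) or 3 (-1.40) of the combination and with limma on log2(FPKM + 1) (-1.08, limma adjusted p = 0.103). *Hpgds*, the prostaglandin D synthase of Th2 cells and of mast and myeloid cells, rose by 5.45 (SE 0.72, edgeR adjusted p = 0.00011) to 2.77, 3.28 and 3.18 FPKM and was higher still with FK506 alone, at 8.85, 6.40 and 3.39 FPKM. *Il1r2*, the decoy receptor of IL-1, rose by 2.54 (SE 0.47, edgeR adjusted p = 0.00105), and *Cd200r1* rose by 1.26 (SE 0.34, edgeR adjusted p = 0.011). The mast cell and myeloid markers listed above were highest with the combination treatment, unlike *Hpgds*, and the B-cell markers were highest with FK506. The part of such cells in these levels was not tested.

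*Ccl1*, the ligand of CCR8, was at 5.62, 6.60 and 9.66 FPKM with anti-CD3 alone, 33.1, 21.1 and 12.5 with *L. acidophilus*, 18.1, 11.8 and 15.8 with FK506, and 5.03, 8.43 and 7.47 with the combination treatment. Both single treatments lay above anti-CD3 alone, and the combination overlapped it (log2 fold change -0.27, SE 0.33, edgeR adjusted p = 0.554). The departure from the sum was -2.76 (SE 0.47, edgeR adjusted p = 0.0114).

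**Figure D4:**
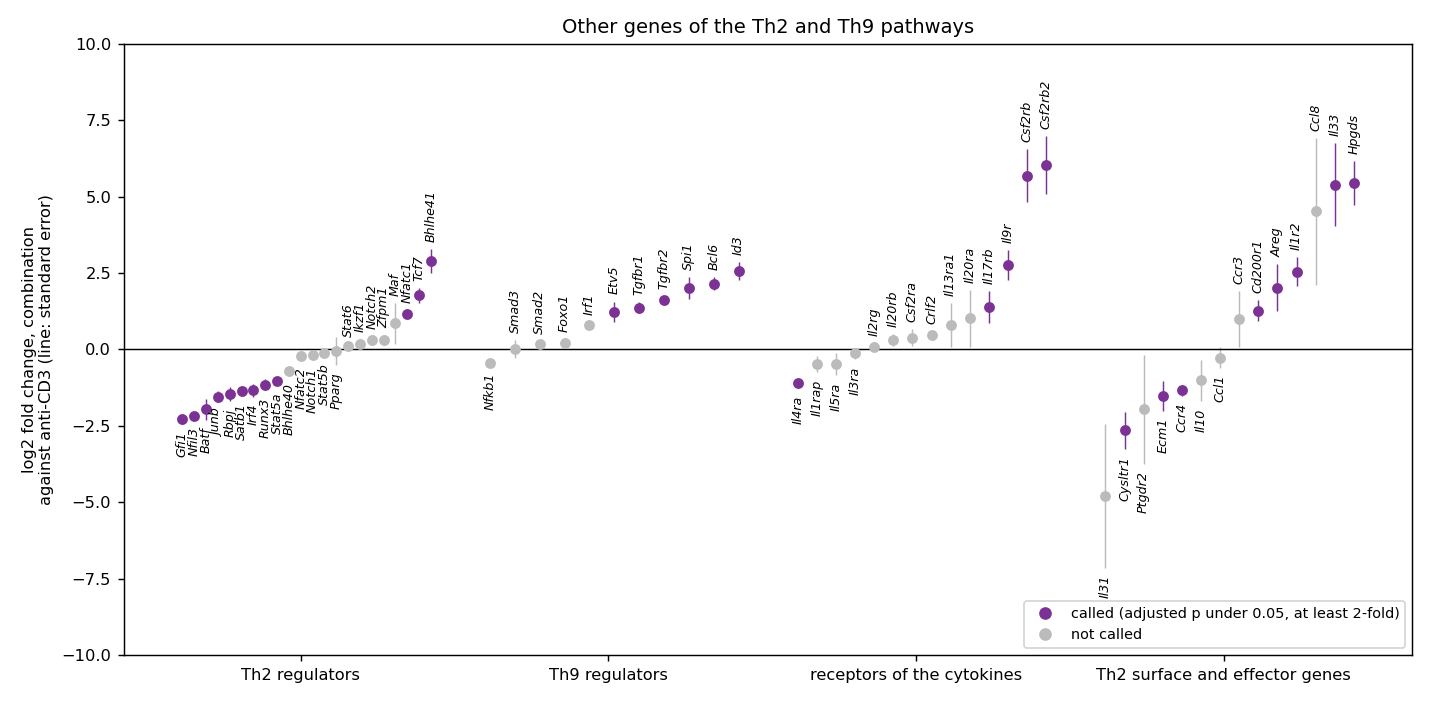
Log2 fold change with the combination treatment against anti-CD3 alone for the 61 tested genes of the 4 pathway lists, with 1 point per gene, lines for the standard error and colour for the calling rule. Regulators of Th2 cells include 9 called lower and 3 called higher, while all 6 called regulators of Th9 cells are above 0.

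Of the 16 genes listed as neighbours of the cytokine cluster on chromosome 11, 14 were tested, and 7 fell and 1 rose with the combination treatment against anti-CD3 alone, with a median log2 fold change of -1.03 beside 0.02 over all genes. Of all genes 10.8% were called lower and 13.8% higher, and limma on log2(FPKM + 1) called 4 of the 14 lower and 0 higher, with 13 at an unadjusted p under 0.05. *Rad50*, named after its values were seen because it lies between *Il13* and *Il5*, was at 32.4, 17.1 and 24.2 FPKM with anti-CD3 alone and at 10.3, 12.7 and 12.2 with the combination treatment (-1.28, SE 0.20, edgeR adjusted p = 0.000342). *Kif3a*, a kinesin gene whose start site lies 53.0 kb from that of *Il4*, fell by 1.53 (SE 0.29, edgeR adjusted p = 0.00114), and *Sept8*, a septin gene, fell by 1.63 (SE 0.21, edgeR adjusted p = 9.83e-05). *Uqcrq*, a subunit gene of respiratory complex III, fell by 2.02 (SE 0.29, edgeR adjusted p = 0.000199). *P4ha2*, a collagen prolyl hydroxylase gene, fell by 4.39 (SE 0.73, edgeR adjusted p = 0.000484) and was at 14.4 FPKM in library 1 of anti-CD3 alone, against 3.01 and 3.58 in the others. Its log2 fold change was -3.27 without that library and -5.16 without library 1 of the combination. *Irf1*, which lies beyond *Il5* and was likewise named after its values were seen, was at 0.79 (SE 0.11, edgeR adjusted p = 0.000183), under a 2-fold change. The log2 fold changes of *Kif3a*, *Rad50* and *Irf1*, which lie around *Il4*, *Il13* and *Il5*, were thus smaller in size than those of the 3 cytokine genes (-4.50, -6.85 and -4.58).

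**Figure D5:**
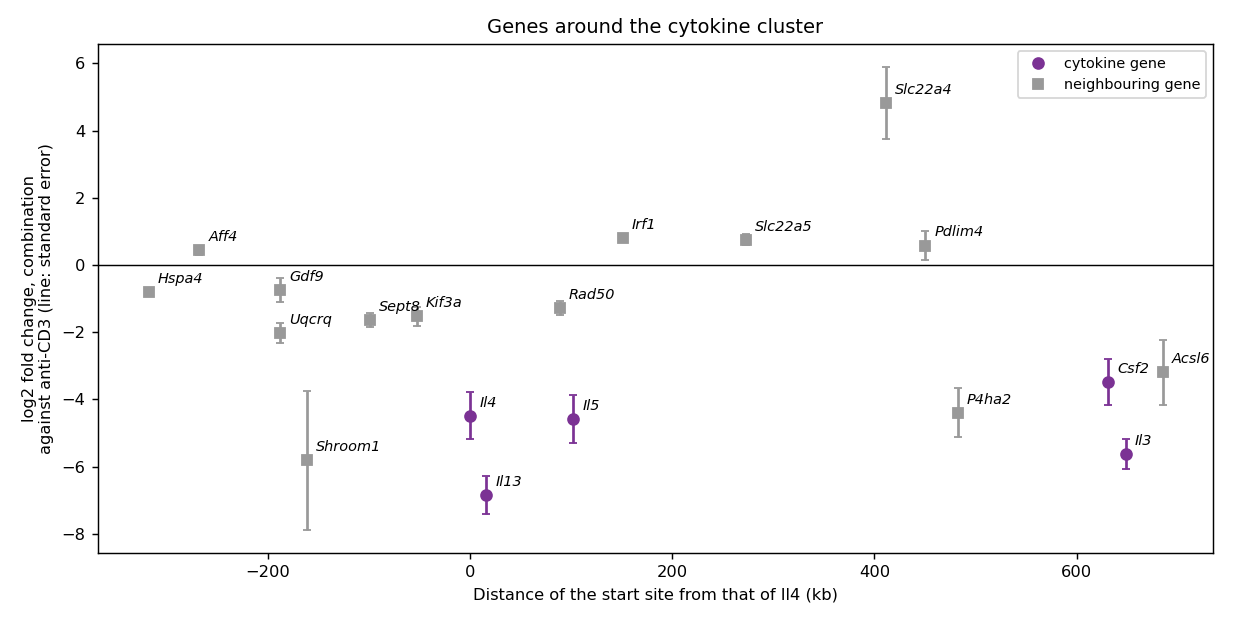
Log2 fold change with the combination treatment against anti-CD3 alone (vertical, lines for the standard error) against the distance of each gene's start site from that of *Il4* in kb, for the 5 cytokine genes (circles) and 14 tested neighbours (squares). *Il4*, *Il13* and *Il5* lie at -4.50 to -6.85 between *Kif3a*, *Rad50* and *Irf1*, which lie at -1.53 to 0.79.

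Of 11 neighbours of *Il24* and *Il1rl1* on chromosome 1, 9 were tested, and 2 fell and 4 rose, beside 10.8% and 13.8% of all genes. *Il18r1* and *Il18rap*, the receptor chains of IL-18 that follow *Il1rl1*, rose by 4.08 (SE 0.53, edgeR adjusted p = 0.000102) and 4.04 (SE 0.31, edgeR adjusted p = 7.37e-06). *Il18r1* went from 1.07, 0.501 and 0.587 FPKM to 15.6, 11.9 and 11.9 FPKM. *Fcmr*, the IgM receptor gene beside *Il24*, rose by 1.80 (SE 0.26, edgeR adjusted p = 0.000177), in the opposite direction to *Il24*, and *Mapkapk2* fell by 1.69 (SE 0.18, edgeR adjusted p = 2.75e-05). *Fcmr* is a B-cell gene and *Il18r1* is also expressed by NK cells, whose 4 markers summed to 0.444 to 0.803 FPKM with anti-CD3 alone and 6.14 to 14.3 FPKM with the combination treatment, and their part in these levels was not tested.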

How the data were processed

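The 12 libraries were grouped by their labels, 3 in each of 4 groups. Per the labels, the authors used bcl2fastq 2.20.0, Trimmomatic, HISAT2 2.1.0 and StringTie 2.1.3b with mm10/GRCm38. The authors deposited FPKM values and TPM values (TPM not used) for 45777 genes, and whole-number counts that are rounded estimates: among 767 single-transcript genes with 1 to 4 counts, the ratio of count to FPKM held within 5% between 2 libraries for 13.6%, against 100% of 1929 genes with 1000 or more. FPKM totals differed between libraries, so no quantile normalization, which the methods name, could be seen in them. The members and lists were chosen with earlier results of these data known.

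The deposited estimated counts were tested in edgeR 4.0.16 (R 4.3.3; quasi-likelihood, TMM factors, 1 mean per group, all 12 libraries, genes above 0 in at least 3) with Benjamini-Hochberg adjustment over 23585 genes. A call asked for a change of 2-fold or more with an adjusted p below 0.05, and in the departure for the adjusted p alone. The SE is the log2 fold change over the square root of F. Folds against 0 counts used a floor of 3 counts per library. On simulated counts, 176 of 200 genes changed 4-fold among 23235 were recovered for the combination against anti-CD3 (6 others called) and 140 for the departure (7 others). Only these 200 genes, picked above a minimum count, were changed, in the combination alone, and each library was drawn independently. In the real data 5797 genes were called in the combination against anti-CD3, so the simulated figures need not carry over. Alternatives were DESeq2 1.42.0, limma 3.58.1, other scalings, filters and pseudocounts, the replicate number as a block, and leaving out each library. Same-numbered libraries deviated together in *L. acidophilus* against anti-CD3 alone (r = 0.477, 0.316 and 0.192) and in the combination against *L. acidophilus* (0.201, 0.208 and 0.124). The labels do not say what a number shares. Replicates of a group differed by more than sampling noise (chi-square 4.52 to 188 for each degree of freedom). With *L. acidophilus*, libraries 2 and 3 were closest (8.95), against 55.1 and 54.4 from library 1. In the combination this pair was also closest (4.52), against 72.1 and 79.2 from library 1. The values were 91.8 to 188 with anti-CD3 alone and 43.7 to 57.4 with FK506. P-values measure the spread between these libraries only.

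The genes named from the pathway and neighbour lists were those called in the combination against anti-CD3 or in the departure, at most the 4 largest in each direction with a mean of at least 1 FPKM, plus fixed receptor chains and *Stat6*. *Rad50*, *Irf1*, *Satb1*, *Bhlhe40*, *Hspa4* and *Smad2* were added after their values were seen. The 3 genes most like a member by Pearson's r of log2(FPKM + 1) were named for 5 members. Markers of CD4 T cells, CD8 T cells, B cells, myeloid cells, NK cells, and mast cells and basophils were summed in FPKM. Plots used matplotlib 3.10.9 and Python 3.11.15.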

Additional observations from a re-analysis of the deposited data

Results flagged for a closer look

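For 9 genes of the pathway and neighbour lists, the effect of *L. acidophilus* differed between cells with and without FK506, as tested by the departure from additivity on the log2 scale in edgeR over all genes. They were 7 of 61 tested pathway genes and 1 of 14 and 1 of 9 tested neighbours on chromosomes 11 and 1, beside 3% of all genes called lower and 1.35% higher, and the 7 became 3 without library 2 of the combination. *Ccl1* was at -2.76 (edgeR adjusted p = 0.0114), with all 3 *L. acidophilus* libraries above those of anti-CD3 alone and all 3 combination libraries below those of FK506. *Gfi1* was at -1.19 (edgeR adjusted p = 0.0142), *Nfil3* at -0.88 (edgeR adjusted p = 0.0242), *Il4ra* at -0.95 (edgeR adjusted p = 0.0358) and *Fcmr* at 1.48 (edgeR adjusted p = 0.0404). The other 4 were named after their values were seen: the genome organizer *Satb1* at -1.24 (edgeR adjusted p = 0.013), the Th2 regulator *Bhlhe40* at 1.19 (edgeR adjusted p = 0.0186), the heat shock gene *Hspa4* at -0.54 (edgeR adjusted p = 0.0386) and *Smad2* at -0.50 (edgeR adjusted p = 0.046).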

How the results depend on the processing

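The member medians, taken for each comparison in each alternative fit, kept their sign in all 125 cases, and 10 of them moved by more than the spread between replicates. With limma on log2(FPKM + 1), which shrinks low genes, they were -3.32 against anti-CD3, -1.50 against FK506, -2.37 against *L. acidophilus* and -1.13 in the departure, and with quantile normalization -3.44, -1.50, -2.50 and -1.15. Without all libraries numbered 1 (added after seeing the data) the median against *L. acidophilus* was -3.57, and with 1 library left out it was -4.68 to -3.11. The 31 pathway calls of the combination against anti-CD3 became 27 to 31 with 1 library left out, 23 with limma on log2(FPKM + 1) and 21 with quantile normalization. The FK506 count of 19 became 12 with quantile-normalized limma. The *L. acidophilus* count of 1 became 2 with DESeq2 and 0 with limma on log2(FPKM + 1), the 2 groups alone or libraries 2 and 3 alone (0 to 1 with 1 library left out). Without a fold threshold the combination called 17 instead of 9 against FK506 (5 to 12 with 1 library left out) and 31 instead of 20 against *L. acidophilus*. The departure count of 7 became 12 with DESeq2 (3 to 8 with 1 library left out). With 1 library left out, *Il1rl1* ranged from -0.16 to 1.95 after *L. acidophilus* and from -2.06 to 0.049 in the departure, and *Csf2* from -0.37 to 1.54 in the departure. On libraries 2 and 3 alone the departures were 0.046 (*Il1rl1*) and -0.83 (*Csf2*). Of the member log2 fold changes in these fits, 749 moved by less than the spread between replicates, 26 moved by more and the 5 given above for *Il1rl1* and *Csf2* changed sign from at least 2-fold. Named pathway and neighbour genes, each taken in each alternative fit, kept direction and call in 811 cases, lost the call in 15 and gained it in 2, with no reversal. With the replicate block the pathway counts were 32, 19, 1, 13, 22 and 10 against 31, 19, 1, 9, 20 and 7, in the order combination against anti-CD3, FK506, *L. acidophilus*, combination against FK506, combination against *L. acidophilus* and departure, and *Il5* was also called in the departure. Same-numbered libraries correlated at 0.0949, -0.0663 and 0.271 in the combination against anti-CD3 (3 of 6 libraries best with their own number), at 0.392, -0.12 and 0.0335 in FK506 against anti-CD3 (2 of 6) and at 0.313, 0.0511 and 0.196 in the combination against FK506 (5 of 6). Over all genes, *L. acidophilus* called 44 genes, with 438 by DESeq2, 69 with the block, 11 by limma on log2(FPKM + 1), 3 on libraries 2 and 3 alone, 0 in edgeR with the 2 groups alone (2616 at an unadjusted p under 0.05), and from 1 (without library 1 or 2 of *L. acidophilus*) to 169 (without library 3 of anti-CD3) with 1 library left out. Without TMM factors the median over all genes in the combination against anti-CD3 was 0.23 instead of 0.02, and the calls were 1827 lower and 3967 higher instead of 2541 and 3256. Low counts limit *Il3* and *Il5* in the combination, and the estimated counts limit the bounds of *Il9* and *Il24*. The causes of these differences were not tested.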
